A study of Mus musculus with 3 samples.

Results

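The genes described here are the annexins Anxa1, Anxa2, Anxa3, Anxa4, Anxa5, Anxa6, Anxa7, Anxa8, Anxa9 and Anxa11, measured in EpH4-PR cells. They were taken by name, as every non-control probe whose gene name in the array files was an annexin of this list. This gave 10 genes of the 29273 gene names on the array, with 14 probes of 41174. Anxa2, Anxa3, Anxa4 and Anxa6 had 2 probes each and the other 6 genes had 1. Each probe was a single spot except that of Anxa8, which was printed as 10 spots. EpH4 is an immortalised mouse mammary epithelial line, and EpH4-PR cells are EpH4 cells stably transfected with the A form of the progesterone receptor (PR-A), from selected clones. The cells were grown in DMEM with 10% FBS to about 75% confluence. Their RNA was labelled with Cy5 and hybridised to 3 Agilent whole mouse genome arrays, each against a commercial mouse reference RNA (Stratagene mouse standard) labelled with Cy3. All 3 arrays therefore belong to 1 group. Arrays of the vector control line EpH4-EV were not analysed here, so a ratio gives a level in EpH4-PR RNA relative to the reference RNA and does not measure an effect of PR. The dyes were not swapped, and a dye effect on a probe cannot be told apart from a difference between the RNAs. In bulk RNA, moreover, fewer expressing cells in a sample and less RNA per cell cannot be told apart.

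Annexins are soluble proteins that bind acidic phospholipids, chiefly phosphatidylserine, in a calcium-dependent way. Each has a conserved core of annexin repeats, which lies against the membrane when calcium is bound, and an amino-terminal tail of its own through which it meets partners such as the S100 proteins. They are known for organising membranes in exocytosis and endocytosis, for resealing torn plasma membranes, for plasminogen activation at the cell surface and for damping inflammation, and epithelial cells commonly hold several of them.

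Values are log2 ratios of EpH4-PR RNA (Cy5) over reference RNA (Cy3) after background correction and loess normalization within each array, a smoothing step that removes the dependence of the ratio on spot intensity. A ratio of 0 means that a probe followed the typical probe of its intensity. A probe was called higher or lower when limma gave an adjusted p under 0.05, by Benjamini-Hochberg over all probes, together with a log2 ratio of at least 1 or of -1 or below. Of the annexin probes 13 of 14 were well above background in Cy5 and in Cy3 on all 3 arrays, and none was saturated. In EpH4-PR RNA after loess, Anxa3, Anxa6 and Anxa1 were the highest relative to the reference, by 1.57-fold for the main Anxa3 probe. Anxa8 was then the lowest, by 1.77-fold, though not when the arrays were only centred on their medians, as given below. By limma 0 of the 14 annexin probes were called, although 9 had an unadjusted p under 0.05. Of all probes on the array 2.26% were called higher and 3.83% lower. Without the requirement on size, 4 annexin probes had an adjusted p under 0.05 and lay higher, against 25.7% of all probes, and 5 lay lower, against 24.6% of all probes. These shares of the annexin probes, 28.6% and 35.7%, lie near those of the whole array. The median log2 ratio of the annexin probes was -0.06, beside -0.01 for all probes.

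**Figure D1:**
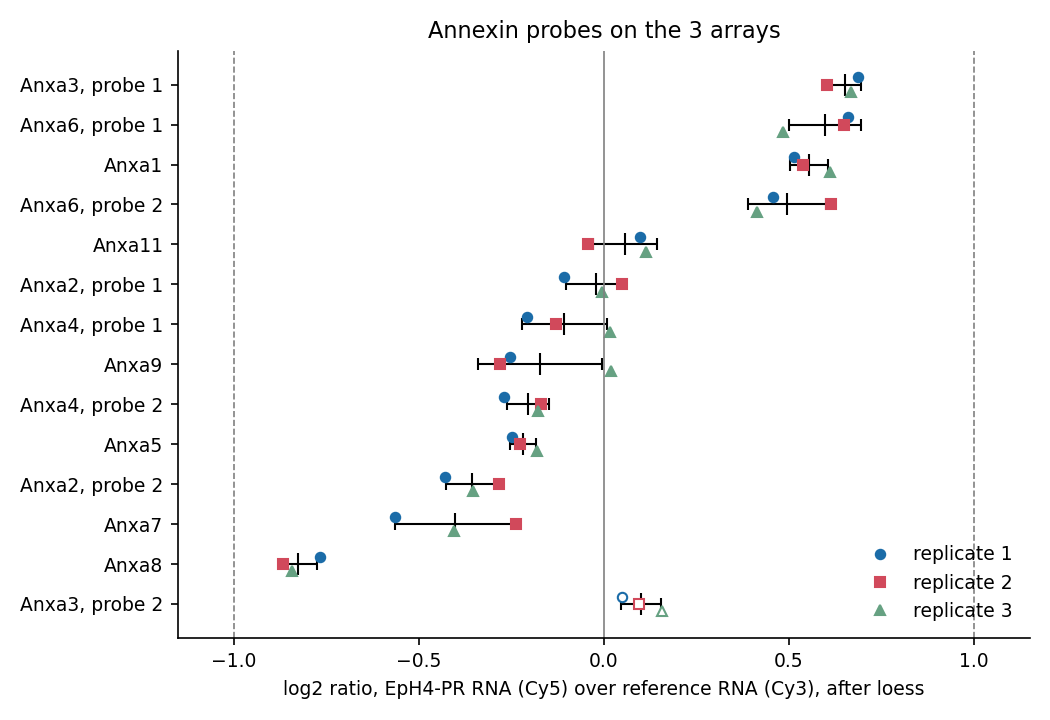
Log2 ratio of EpH4-PR RNA over reference RNA (horizontal axis, after loess) for each of the 14 annexin probes, ordered by mean, where coloured points are the 3 arrays, the black tick and bar are mean and SD, dashed lines mark 1 and -1, and open points are a probe not well above background. The Anxa3, Anxa6 and Anxa1 probes at the top lie between 0.41 and 0.68, Anxa8 lies between -0.87 and -0.77, and no point reaches a dashed line.

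Anxa3, an annexin that inhibits phospholipase A2 in vitro, had the highest ratio after this processing. It did not under every alternative, as given with Anxa6 below. Its main probe (A_51_P451032) read 24874, 20551 and 23390 in Cy5 on replicates 1, 2 and 3 and 4773, 4355 and 4668 in Cy3. The log2 ratios were 0.68, 0.60 and 0.67. All 3 arrays lay above 0, with a mean of 0.65 ± 0.04 (SD, n = 3, limma adjusted p = 0.000253). The second probe under this name (A_51_P430240) was not well above background in either channel on any array, so it gives no level for the gene.

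Anxa1, or lipocortin 1, is a glucocorticoid-induced inhibitor of inflammation whose amino-terminal peptides act on formyl peptide receptors. The Anxa1 probe read 22690, 19942.5 and 22915.4 in Cy5 and 4909, 4423 and 4753 in Cy3. The log2 ratios of 0.51, 0.54 and 0.61 gave a mean of 0.55 ± 0.05 (SD, n = 3, limma adjusted p = 0.000474), or 1.47-fold. The arrays of Anxa1 overlapped those of Anxa3 in range. Within each array, however, Anxa3 was the higher, at 0.68, 0.60 and 0.67 against 0.51, 0.54 and 0.61.

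Anxa6, which carries a larger set of annexin repeats than its relatives and is tied to cholesterol and endosome traffic, had dimmer spots. Its first probe (A_51_P231979) read 278, 278 and 272 in Cy5 and 154, 151 and 130 in Cy3. The log2 ratios of 0.66, 0.65 and 0.48 averaged 0.60 ± 0.10 (SD, n = 3, limma adjusted p = 0.000723). The second Anxa6 probe (A_52_P434670), designed on a cDNA clone, had log2 ratios of 0.46, 0.61 and 0.41, a mean of 0.49 ± 0.11 (SD, n = 3, limma adjusted p = 0.00160). The 2 probes differed by 0.10 ± 0.09 (SD, n = 3 arrays), with overlapping ranges, and both lay above 0 on every array. For such dim spots the size depends on the offset of 50 intensity units added after background correction. With no offset the means were 0.94 and 1.05, above the 0.75 of the main Anxa3 probe. The second Anxa6 probe was then called, under a setting that called 7.59% of all probes higher. With the log ratio of the scanner software the Anxa6 means were 0.96 and 1.29, against 0.83 for the main Anxa3 probe.

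At the other end stood Anxa8, first described as a vascular anticoagulant and found in several lining epithelia. The mean over its 10 spots was 891, 743 and 832 in Cy5 and 631, 586 and 604 in Cy3. The log2 ratios were -0.77, -0.87 and -0.84, a mean of -0.83 ± 0.05 (SD, n = 3, limma adjusted p = 0.000132). The spots make Anxa8 the member with a view of technical error within an array: the SD between its 10 spots was 0.0170 to 0.0494 on the 3 arrays. The SD between the array means was 0.0521. Each array mean averages 10 spots and carries less spot error than a single spot, so these SDs are not directly comparable. All 30 spots lay below 0. The raw Anxa8 intensities were nonetheless higher in Cy5 than in Cy3 on each array.

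Promoter sequence is shown for Anxa1 and Anxa8 as the genes nearest the top and the bottom of the ratio order among the 8 member genes that the RefSeq promoter table holds (build GRCm38.p6). Anxa3 and Anxa6 have no entry there. The letters run from 250 bases before the annotated start up to it, read along the gene, and capitals mark matches on either strand to the TATA box (TATAAA), the GC box (GGGCGG), the CCAAT box or the core motif that steroid receptors such as PR recognise (TGTTCT). The Anxa1 window is chr19:20390672-20390921 on the minus strand and the Anxa8 window chr14:34085729-34085978 on the plus strand.
Anxa1: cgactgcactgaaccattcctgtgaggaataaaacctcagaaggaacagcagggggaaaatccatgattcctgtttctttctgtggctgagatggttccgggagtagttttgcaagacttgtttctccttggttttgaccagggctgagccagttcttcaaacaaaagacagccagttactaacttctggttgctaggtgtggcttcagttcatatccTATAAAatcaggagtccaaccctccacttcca
Anxa8: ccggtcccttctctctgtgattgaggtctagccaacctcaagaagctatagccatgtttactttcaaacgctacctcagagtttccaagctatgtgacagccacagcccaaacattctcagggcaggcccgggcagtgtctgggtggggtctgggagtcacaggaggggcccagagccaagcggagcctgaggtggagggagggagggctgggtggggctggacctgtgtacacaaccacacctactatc

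In the Anxa1 window the only match was a TATA box at position -32 from the start, a motif held by 12.4% of all 32851 promoter windows of this length. The Anxa8 window held none of these motifs. Over the 11 entries of the 8 genes, the TATA box was found in 2 (Anxa1 and Anxa2), the GC box in 4, the CCAAT box in 0 and the steroid receptor motif in 1. The shares in all windows were 32.7% for the GC box, 33.8% for the CCAAT box and 16.1% for the steroid receptor motif. The last entry belonged to Anxa4, with 2 matches at -199 and -18 in 1 of its 2 windows. The 2 Anxa7 windows overlap, and the GC box of the second, at -8, is the site at -200 in the first. Thus 2 of the 4 entries with a GC box share a site. The array files name no genome build, and these windows were matched to the probes by gene symbol only.

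Anxa2 pairs with S100a10 in a tetramer that binds tissue plasminogen activator and plasminogen at the cell surface. Its first probe (A_51_P165342) read 2803, 2956 and 3022 in Cy5 and 1084, 1056 and 1084 in Cy3. The log2 ratios of -0.11, 0.05 and -0.01 gave a mean of -0.02 ± 0.08 (SD, n = 3, limma adjusted p = 0.731), which does not differ from 0 beyond the spread between arrays. The second Anxa2 probe (A_52_P62037), designed on the same RefSeq transcript, had log2 ratios of -0.43, -0.28 and -0.35, with a mean of -0.35 ± 0.07 (SD, n = 3, limma adjusted p = 0.00315). The gap between the 2 probes of this gene was 0.32, 0.33 and 0.35 on the 3 arrays, a mean of 0.33 ± 0.01 (SD, n = 3). That gap recurred on every array and exceeded the SD of either probe, so the array spread of a probe does not include it.

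Anxa4 and Anxa5 also lay slightly below 0. Anxa4 is an epithelial annexin that gathers at apical and secretory membranes. Its first probe (A_51_P256344) had log2 ratios of -0.21, -0.13 and 0.02, a mean of -0.11 ± 0.11 (SD, n = 3, limma adjusted p = 0.185). The second Anxa4 probe (A_51_P256342) had log2 ratios of -0.27, -0.17 and -0.18, with a mean of -0.21 ± 0.06 (SD, n = 3, limma adjusted p = 0.0169), and its adjusted p was 0.100 without replicate 1 and 0.0730 without replicate 2. The first Anxa4 probe, also below 0, instead gained an adjusted p under 0.05 without replicate 3 (-0.17, limma adjusted p = 0.0468). The 2 probes differed by 0.10 ± 0.08 (SD, n = 3), and their ranges overlapped.

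Anxa5, the placental anticoagulant protein used as a probe for phosphatidylserine on dying cells, read 3336, 3388 and 3684 in Cy5 and 1381, 1420 and 1452 in Cy3. The log2 ratios of -0.25, -0.23 and -0.18 averaged -0.22 ± 0.03 (SD, n = 3, limma adjusted p = 0.0110). Anxa5 had the smallest SD of the annexins, yet its adjusted p was 0.0695 without replicate 1 and 0.0767 without replicate 2.

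The remaining members were dim. Anxa7, or synexin, which promotes fusion of secretory granules, read 139, 135 and 121 in Cy5 and 184, 158 and 133 in Cy3. Its log2 ratios of -0.56, -0.24 and -0.41 gave -0.40 ± 0.16 (SD, n = 3, limma adjusted p = 0.00824), and -0.67 with no offset. Anxa7 lost its adjusted p under 0.05 under median centring (-0.12, limma adjusted p = 0.102), with the scanner's log ratio (limma adjusted p = 0.0612) and by the methods' test of the ratio against 0 (adjusted p = 0.114). Anxa9, whose calcium-binding sites are not conserved, read 112, 114 and 98.2 in Cy5 and 154, 151 and 108 in Cy3. The Anxa9 log2 ratios of -0.25, -0.28 and 0.02 gave a mean of -0.17 ± 0.17 (SD, n = 3, limma adjusted p = 0.110). Replicates 1 and 2 lay below 0 and replicate 3 at 0.02, and without replicate 3 the mean was -0.27, with an adjusted p of 0.0105.

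Anxa11, which links RNA granules to lysosomes and binds S100a6, read 271, 258 and 276 in Cy5 and 188, 194 and 159 in Cy3. Its log2 ratios were 0.10, -0.04 and 0.11, a mean of 0.06 ± 0.09 (SD, n = 3, limma adjusted p = 0.400). Anxa11 thus did not differ from 0 beyond the spread between arrays.

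**Figure D2:**
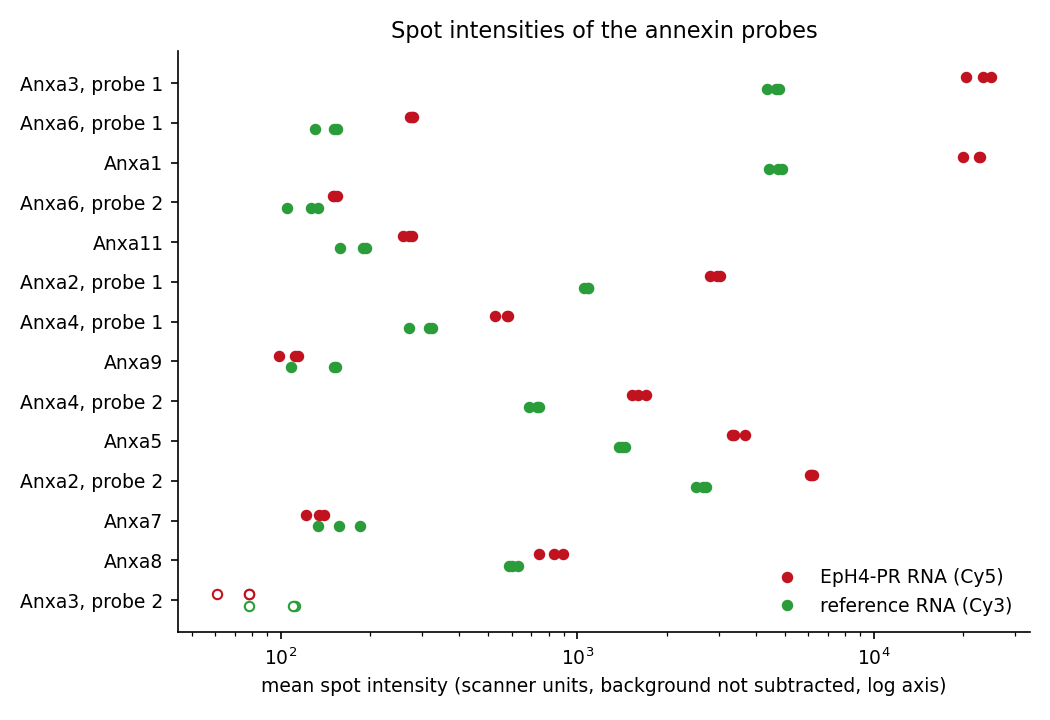
Mean spot intensity of each annexin probe on the 3 arrays (horizontal axis, scanner units on a log scale, background not subtracted), with EpH4-PR RNA in red, reference RNA in green and open points for a probe not well above background. The main Anxa3 probe and the Anxa1 probe read over 19942 in Cy5 on every array, whereas Anxa7, Anxa9 and the second Anxa6 probe stayed under 155 there.

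In order of their ratios after loess, the 13 measured probes began with Anxa3, Anxa6, Anxa1 and the second Anxa6 probe. Anxa11, the first probes of Anxa2 and Anxa4, Anxa9, the second Anxa4 probe and Anxa5 followed, and then the second Anxa2 probe, Anxa7 and Anxa8. Of the 12 neighbouring pairs in this order, 3 had arrays that did not overlap. Between the lowest array of the second Anxa6 probe and the highest array of Anxa11 the gap was 0.30. Measured in the same way, the gap was 0.04 from Anxa5 to the second Anxa2 probe and 0.20 from Anxa7 to Anxa8. The other neighbours overlapped in range. Overlap alone does not settle their order, because all probes were read on the same arrays. The difference between Anxa3 and Anxa8 was 1.45, 1.47 and 1.51 on the 3 arrays, a mean of 1.48 ± 0.03 (SD, n = 3), or 2.78-fold. This is an order of ratios to the reference and not of the amounts of the annexins, since probes differ in brightness for the same amount of RNA. The SD between arrays had a median of 0.0796 over the 13 annexin probes and ranged from 0.0342 for Anxa5 to 0.167 for Anxa9, beside a median of 0.0853 over all 25727 probes well above background in both channels.

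The direction of several annexin ratios rested on the loess step. Before loess, the ratio of Cy5 over Cy3 grew with intensity over most of the range. Its median over all probes rose from -0.08 among the dimmest to 1.67 at a mean log2 intensity near 11.75. Among brighter probes the median was lower, at 1.58 near 13.25 and 1.11 near 13.75. The mean log2 intensity of Anxa1 was 13.30 and that of the main Anxa3 probe 13.32. Anxa3 and Anxa1 had ratios of 2.33 and 2.23 before loess, of which the fitted trend at their intensity made up 1.68 and 1.67. Anxa8 had 0.51 before loess, below the trend of 1.34 at its intensity. Anxa5 had 1.33 before loess against a trend of 1.55, and the 2 Anxa2 probes had 1.49 and 1.25 against trends of 1.52 and 1.60. The Anxa6 probes had 1.35 and 0.80, against 0.75 and 0.31. Of the measured annexins, then, Anxa1, Anxa3, Anxa6 and Anxa11 lay above the trend and the others below it.

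**Figure D3:**
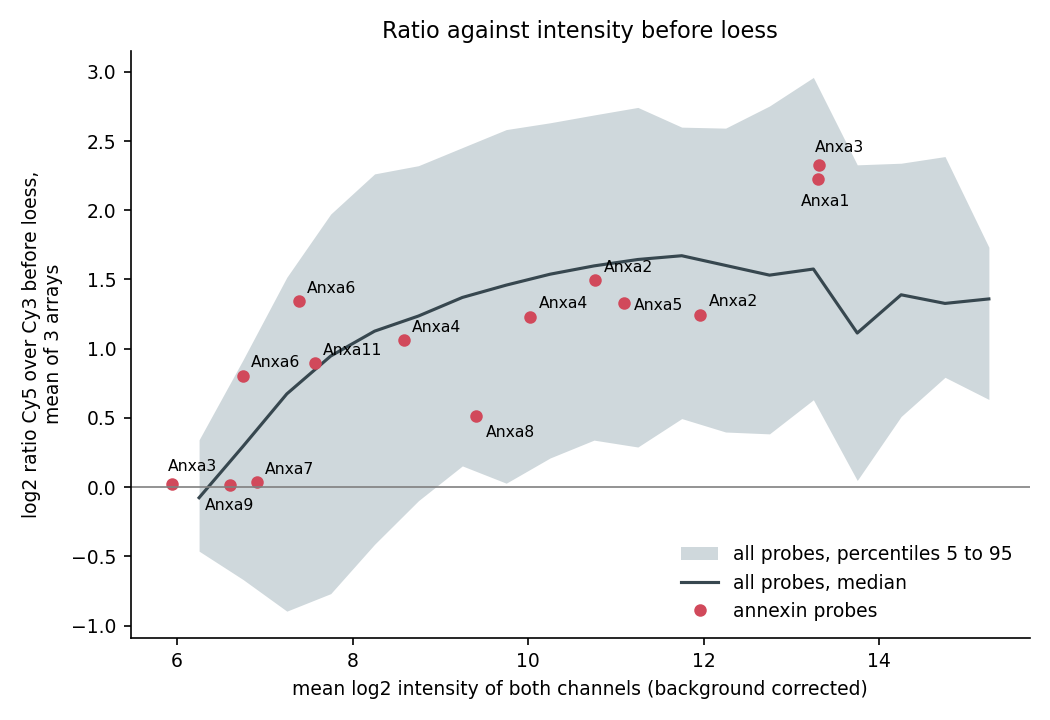
Log2 ratio of Cy5 over Cy3 before loess (vertical axis, mean of 3 arrays) against mean log2 intensity of both channels (horizontal axis), with the median (line) and percentiles 5 to 95 (band) of all probes in intensity bins and the annexin probes as red points. The median of all probes climbs from -0.08 to 1.67 near an intensity of 11.75 and is lower beyond it. Anxa3, Anxa1 and Anxa6 lie above the line, and Anxa8 at 0.51 lies below it though above 0.

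When each array was only centred on its median, with no correction for intensity, 11 of 14 annexin probes lay above 0 and 7 were called higher, with 0 called lower and a median log2 ratio of 1.00. Of all probes 17.1% were called higher and 1.72% lower under that scaling. The called probes were those of Anxa1 at 2.08, Anxa3 at 2.18, Anxa2 at 1.34 and 1.09, Anxa6 at 1.19, Anxa5 at 1.18 and the second Anxa4 probe at 1.08. Anxa8 then lay at 0.36. The order changed too: among the 13 measured probes Anxa8 ranked 11, above Anxa7 at 12 and Anxa9 at 13. The Anxa6 probes moved from ranks 2 and 4 to 4 and 10, and the first Anxa2 probe from 6 to 3. Over the whole array the same change moved the share of calls that were higher from 37.1% to 90.8%, and the median of probes well above background from 0.04 to 0.42. Anxa1, the main Anxa3 probe and both Anxa6 probes lay above 0 under every alternative tried. The means of the single Anxa7 and Anxa9 probes lay below 0 under every one. However, cDNA clone probes described as annexin A7 but not named so lay above 0 under median centring, at 0.27 and 0.16. For Anxa2, Anxa4, Anxa5 and Anxa8 the sign differed between loess and median centring. Which of the 2 scalings describes these cells was not tested.

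**Figure D4:**
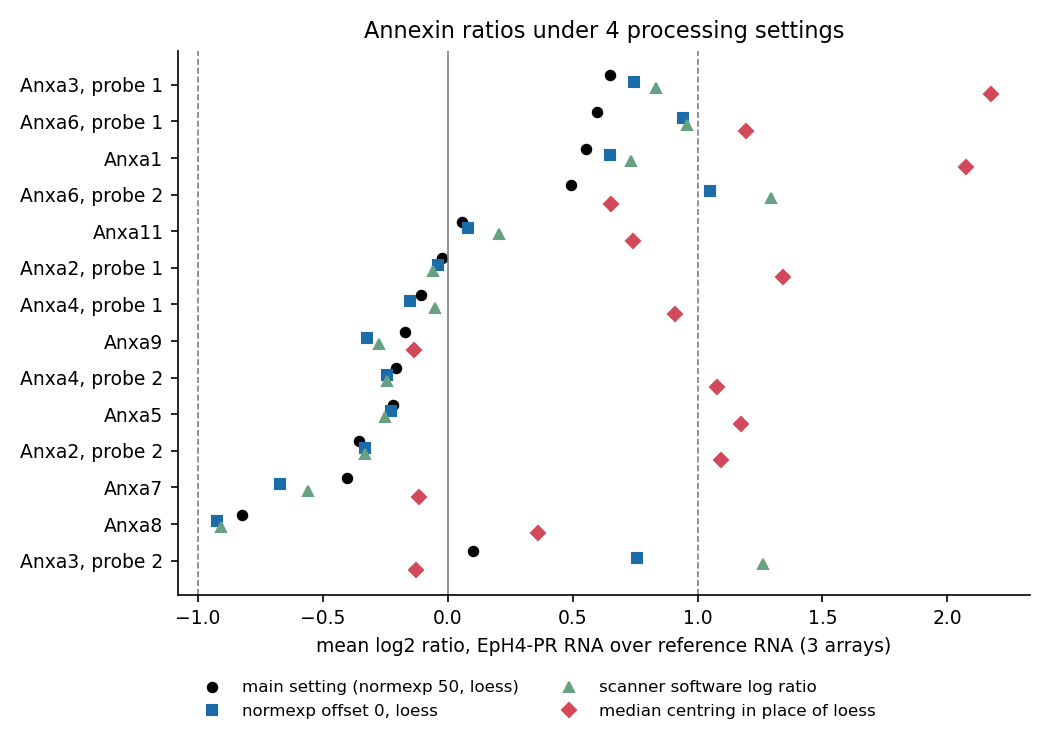
Mean log2 ratio of the 14 annexin probes over 3 arrays (horizontal axis) under the main setting (black circles), normexp with offset 0 (blue squares), the log ratio of the scanner software (green triangles) and median centring in place of loess (red diamonds). The first 3 settings share a sign for every probe, while the red diamonds of Anxa2, Anxa4, Anxa5 and Anxa8 lie above 0 where the other symbols lie below. The second Anxa3 probe in the bottom row was not well above background.

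Among annexins outside the member list, Anxa10 had a ratio of 0.01 ± 0.16 (SD, n = 3, limma adjusted p = 0.878) and changed sign under median centring, to -0.15. Its probe was well above background in Cy3 on only 2 arrays. Of the 2 probes of Anxa13, a myristoylated annexin of intestinal and kidney epithelium, one lay at -0.25 ± 0.05 (SD, n = 3, limma adjusted p = 0.00889), and the other was not well above background in Cy5 on any array, so no fold is given for it.

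Most S100 proteins are small calcium-binding dimers, and several S100 proteins clasp the tail of an annexin. All 6 on the list were measured in both channels on every array, with 0 called higher, 1 called lower (against 3.83% of all probes) and a median log2 ratio of -0.53, which became 0.30 under median centring. Of the 6, 4 had an adjusted p under 0.05 and lay lower, against 24.6% of all probes. S100a10, the partner of Anxa2, had log2 ratios of -0.23, -0.25 and -0.25, a mean of -0.24 ± 0.01 (SD, n = 3, limma adjusted p = 0.00674), between 0 and the ratio of the second Anxa2 probe. Its limma adjusted p was 0.0550 without replicate 2, 0.116 with no offset and 0.0967 with the scanner's log ratio. S100a11, the partner of Anxa1, had 0.01, 0.12 and 0.17, a mean of 0.10 ± 0.08 (SD, n = 3, limma adjusted p = 0.167). S100a6, which binds Anxa2 and Anxa11, was lower at -0.91 ± 0.04 (SD, n = 3, limma adjusted p = 9.19e-05).

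S100a4, a partner of Anxa2 that is abundant in fibroblasts and motile cells, was the only S100 on the list to be called, at -2.73, -2.82 and -2.73 (mean -2.76 ± 0.05 (SD, n = 3), 6.78-fold lower, limma adjusted p = 1.31e-05). It stayed lower under median centring, at -1.19. S100a1 lay at -0.81 ± 0.11 (SD, n = 3, limma adjusted p = 0.000296), and S100b, at -0.03 ± 0.21 (SD, n = 3), did not differ from 0 beyond the spread between arrays. Under median centring S100a10 and S100a6 lay above 0, at 1.26 and 0.69.

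The partner lists together held 56 probes of 35 genes, of which 3 were called higher (against 2.26% of all probes) and 8 lower (against 3.83% of all probes), with a median of -0.03. Under median centring 18 were called higher (against 17.1% of all probes) and 2 lower (against 1.72%), with a median of 0.45. Of the membrane repair and calcium-dependent partners 2 of 15 probes were called higher and 1 lower, against 2.26% and 3.83% of all probes. The median was 0.09. Ahnak, a giant scaffold that binds the Anxa2 and S100a10 complex, stood at the top with 1.62, 1.75 and 1.33 (mean 1.57 ± 0.21 (SD, n = 3), limma adjusted p = 0.000144), and its other probe had 0.31. Probes of Pdcd6ip, the ESCRT adaptor Alix, disagreed, at 0.57 (well above background in Cy3 on 2 arrays), 0.43, -0.72 and -1.06, as did those of the ESCRT subunit Chmp4b, at 1.08 and -0.42.

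In the plasminogen system, the proteolytic cascade that the Anxa2 complex localises, 0 of 13 probes were called higher and 4 lower. The shares of all probes were 2.26% and 3.83%, and the median of the list was -0.17. The lowest ratio was that of 1 of the 2 probes of plasminogen itself (Plg), at -3.22 ± 0.08 (SD, n = 3, limma adjusted p = 1.28e-05), while the other lay at -0.17 and was well above background in Cy5 on 1 array. The urokinase gene Plau had the highest, at 0.47 ± 0.04 (SD, n = 3, limma adjusted p = 0.000705). The 2 probes of the urokinase receptor Plaur lay on either side of 0, at 0.01 and -0.06.

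Genes that set phosphatidylserine exposure, and hence the surface that Anxa5 binds, had 1 of 12 probes called higher and 2 lower. The shares of all probes were 2.26% and 3.83%, and the median of the list was 0.13. The flippase Atp11a was highest at 1.06 ± 0.02 (SD, n = 3, limma adjusted p = 5.45e-05), and Tmem30a, the subunit that brings flippases to the surface, was lowest at -1.45 ± 0.06 (SD, n = 3, limma adjusted p = 3.53e-05). Under median centring that Tmem30a probe lay at -0.27 and was not called, and the other Tmem30a probe moved from -1.04 to 0.17. A further Atp11a probe, well above background in Cy5 on 1 array, lay at -0.32, and the probes of the scramblase Ano6 lay at 0.07 and -0.29. Of the 7 probes for phospholipase A2, cyclooxygenases and formyl peptide receptors 0 were called, with a median of 0.00. At a limma adjusted p under 0.05, 2 lay higher and 3 lower, against 25.7% and 24.6% of all probes. The cyclooxygenase Ptgs2 was highest at 0.76 ± 0.07 (SD, n = 3, limma adjusted p = 0.000203) and Ptgs1 was lowest at -0.61 ± 0.10 (SD, n = 3, limma adjusted p = 0.000671).

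**Figure D5:**
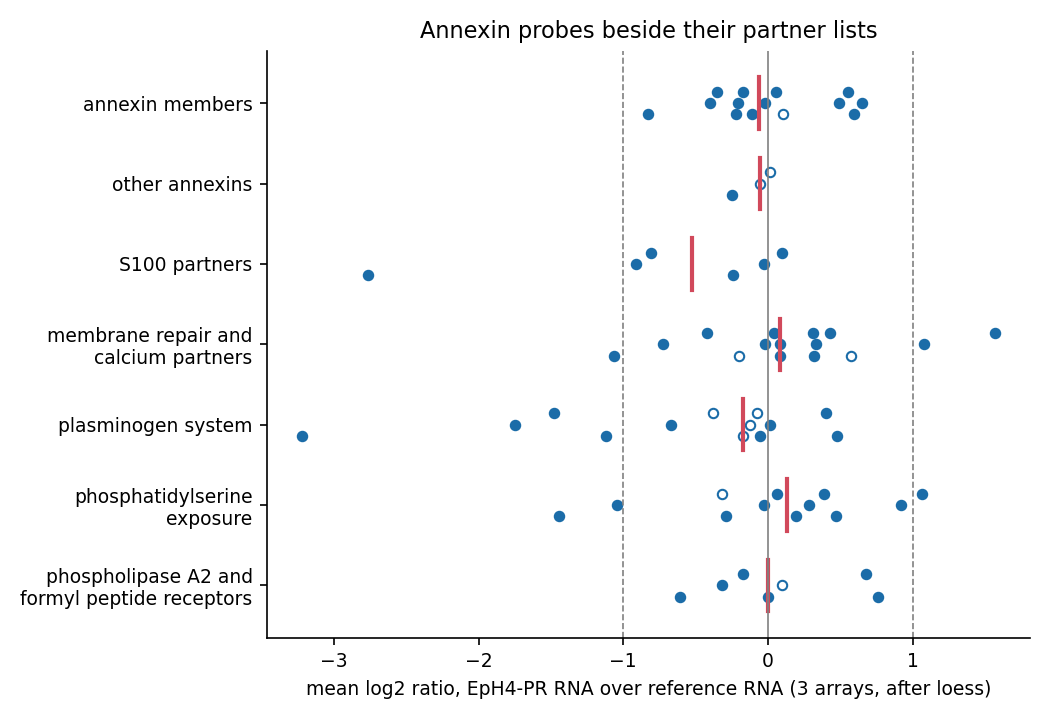
Mean log2 ratio after loess (horizontal axis, 3 arrays) of every probe of the annexin members and of each partner list (rows), with red bars for list medians, dashed lines at 1 and -1 and open points for probes not well above background in each channel throughout. Annexin probes span -0.83 to 0.65, inside the dashed lines, while S100a4 at -2.76, Plg at -3.22 and Ahnak at 1.57 lie outside them.

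The labelled cell type was checked against its markers. On the array as a whole, 2.26% of probes were called higher and 3.83% lower. Of the epithelial probes 7 of 8 were called higher, with E-cadherin (Cdh1) highest at 4.29, and the keratin gene Krt19 was called lower at -2.62. Of the mesenchymal probes 0 of 16 were called higher and 9 lower, down to vimentin (Vim) at -6.51. The highest ratio, -0.04, came from an Fn1 probe well above background in Cy5 on 2 arrays. The other Fn1 probes lay at -0.50 and -1.21, and the latter was called lower. Blood and immune probes had 4 of 9 called lower, from Cd3e at 0.11 to a Ptprc probe that was at least 19.8-fold lower and not well above background in Cy5 on any array. Of the 5 endothelial probes 0 were well above background in each channel throughout. Kdr, the highest, was above background in Cy5 on 3 arrays and in Cy3 on 2, and the Cdh5 probe that was lowest was not above it in Cy5 on any array, so no fold is given for them. Fat probes lay between -0.19 (Plin1) and -0.03 (Cidec, from 2 arrays), and 0 were called in either list. These are levels relative to a reference RNA whose makeup enters every ratio. Each of the 2 probes of the progesterone receptor gene Pgr was well above background in Cy5 on 1 array, and whether the transfected construct holds their target sequence was not tested. In Cy5, 29603 to 30939 probes were well above background per array, and log2 ratios correlated between arrays with a Pearson r of 0.923 to 0.952 across probes, which are not independent replicates. With 3 arrays, the precision is limited by their number. The labels number the arrays as replicates without saying that they came from separate cultures, so p-values measure only the spread between these arrays, which may be technical.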

How the data were processed

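The 3 arrays compared EpH4-PR RNA with a commercial reference RNA. The authors deposited Agilent Feature Extraction output, in which each spot has mean, median, local background and processed intensities per channel and a log10 ratio (Cy5 to Cy3). They also deposited their own comparison of 2 unnamed sides (fold changes, log ratios, errors and p-values), which was not used here.

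Mean intensities were corrected with limma's normexp (offset 50) and normalized by loess within each array. Control and outlier spots (150, 18 and 3 outliers on replicates 1, 2 and 3, none on an annexin probe) had weight 0 in loess and were left out. Spots of a probe were averaged, giving log2 ratios for 41174 probes. Ratios were tested against 0 in R 4.3.3 with limma 3.58.1 (lmFit, eBayes), a procedure tested on simulated data. A probe was well above background when more than 50% of its spots carried that flag. The 1 bound given, for Ptprc, set the reference mean against the higher, per array, of the probe's own Cy5 signal and the lowest signal among detected probes.

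RefSeq accessions matched 21445 of 23705 probes and all 12 annexin probes that carried one. Members and lists were chosen with earlier results of these data known. Named genes were all probes of the members, of other annexins and of S100 partners, the highest and lowest ratio of each other partner list (detected in Cy5 on every array) and of each marker list, and partner genes whose probes disagreed in sign. Alternatives covered background correction, the software's own log ratio, median centring, scale normalization, outlier spots, median spot intensity and a filter on dim probes. They also covered an intensity trend, an ordinary t-test in place of limma, gene means and each array left out.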

Additional observations from a re-analysis of the deposited data

How the results depend on the processing

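Normexp with offset 0 called 3125 probes higher (7.59% of all probes) and 3905 lower (9.48%) over the array. It called 1 annexin probe higher (the second Anxa6 probe) and 6 partner probes higher. The log ratio of the scanner software called 3616 higher (8.78%) and 3887 lower (9.44%), with 2 annexin probes and 8 partner probes higher. Those annexin probes were the second Anxa6 probe and the second Anxa3 probe, which was not well above background. Median centring called 7029 higher and 709 lower, 7 annexin probes higher, 18 partner probes higher and 2 lower, with an annexin median of 1.00. It reversed Anxa2 (1.34 and 1.09), the second Anxa3 probe (-0.13), Anxa4 (0.91 and 1.08), Anxa5 (1.18), Anxa8 (0.36), Anxa10 (-0.15), S100a10 (1.26), S100a6 (0.69), Ptgs1 (0.65), Chmp4b (0.90), Pdcd6ip (0.0361), Plaur (1.02) and Ano6 (0.89). The cause was not tested beyond the ratio trend with intensity. Plaur turned to -0.000888 with offset 0 and Anxa10 to -0.0194 with median spot intensities. With 1 array left out in turn, values near 0 changed sign: the first Anxa2 probe ranged from -0.0576 to 0.0207, Anxa10 from -0.0749 to 0.0734, the dim Anxa13 probe from -0.11 to 0.0156, S100b from -0.12 to 0.0896, Plaur from -0.0177 to 0.0604 and Ano6 from -0.0111 to 0.11. Across annexin probes and alternatives, 144 values kept direction and side of the threshold, 11 lost an adjusted p under 0.05, 4 gained it and 8 reversed. The ordinary t-test, scale normalization, the filter on dim probes and kept outliers called 0 annexin probes. So did no background correction, an intensity trend, gene means and each left-out array. No paired analysis was possible because the 3 arrays form 1 group, and slide could not serve as a block because each slide held 1 array. Dim probes (Anxa6, Anxa7, Anxa9) have ratios whose size is limited by signal over background.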

Other observations

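Besides the named annexins, 3 cDNA clone probes on the array are described as annexin products but carry no annexin gene name. The clone AK041855, described as annexin A7, had log2 ratios of -0.32, -0.41 and -0.17, a mean of -0.30 ± 0.12 (SD, n = 3, limma adjusted p = 0.0123), beside -0.40 ± 0.16 for the Anxa7 probe, and under median centring it lay at 0.27. The clone AK032013, also described as annexin A7, had 0.18, -0.02 and -0.24, a mean of -0.03 ± 0.21 (SD, n = 3), and did not differ from 0 beyond the spread between arrays. Under median centring the clone AK032013 lay at 0.16. The clone AK032703, described as annexin A4, was well above background in Cy5 on 1 array, so no level is given for it.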
